A study of Arabidopsis thaliana with 14 samples.

Results

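Siliques of the epimutagenized line Aza1 in its eM3 generation were compared with siliques of solvent-treated jas-3 plants, by sequencing of messenger RNA. The comparison takes every library that the sample labels give to these groups, 4 Aza1 eM3 libraries and 3 DMSO libraries, of 14 in the series. All plants were Arabidopsis thaliana of the Col-0 ecotype. Both groups carried jas-3, an insertion allele of JASON, and the controls therefore share the mutation. The DMSO plants came from seeds treated with the solvent alone, and Aza1 descends from a single jas-3 line treated with 5-Azacytidine, so the 4 libraries sample 4 siblings of 1 line and not 4 independent treatments. Untreated jas-3 (2 libraries), the preceding Aza1 generation, eM2 (3 libraries), and the wild type, WT (2 libraries), are given beside them. The sample labels count the generations from another start and call the eM3 libraries eM2. They do not say which eM3 sibling gave which library. Each library was made from 3 siliques collected 6 to 9 days after anthesis under a photoperiod of 16 h.

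In Arabidopsis, pollen with unreduced, diploid sperm gives seeds with a surplus of paternal genomes in the endosperm, the tissue that feeds the embryo. Such triploid seeds usually fail because the endosperm does not cellularize, a response called the triploid block. JASON is needed for regular chromosome separation in male meiosis, and jas mutants shed diploid pollen. The block depends on paternally expressed genes (PEGs), imprinted genes read mainly from the paternal copy, among them type I MADS-box factors such as PHERES1 (PHE1). 5-Azacytidine is a cytidine analog that traps DNA methyltransferases and leaves the genome poorer in methylated cytosines, and altered methylation at CG sites can pass to the progeny. The question here is what still sets Aza1 apart from the controls in the generation in which the suppression of the block was partly lost, and how far its siblings differ.

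The 7 libraries held 40784273 to 43974069 gene counts, so depth was nearly even. Their TMM scaling factors ran from 0.965 in Aza1 eM3 replicate 4 to 1.24 in DMSO replicate 1. Raw counts therefore compare only roughly, while the log2 differences take these factors into account. No gene was called different between Aza1 eM3 and DMSO among the 22359 tested, that is 0% at an adjusted p under 0.01 and a log2 fold change of at least 2 (edgeR quasi-likelihood test, Benjamini-Hochberg adjustment). None passed an adjusted p under 0.05 at any fold either, and the smallest adjusted p was 0.101. At an unadjusted p under 0.05, 960 genes (4.29%) had higher and 666 genes (2.98%) lower counts in Aza1 eM3. The groups did not overlap for 850 genes (3.8%) that were higher in every Aza1 eM3 library and for 863 (3.86%) that were lower. DESeq2 called 9 genes, or 0.0426% of the 21114 it tested, 8 of them higher in Aza1 eM3. Against untreated jas-3, which shares no library with DMSO, the same fit called 31 genes higher (0.139%) and 46 lower (0.206%).

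JASON itself did not separate the groups. It had 93, 196, 140 and 138 counts in Aza1 eM3 replicates 1 to 4 and 169, 148 and 111 counts in the DMSO libraries, a log2 difference of 0.14 (SE 0.26, edgeR adjusted p = 0.923). Counts over the whole gene were lower in WT (14 and 14) than in untreated jas-3 (188 and 225), so they are no check of the insertion. Storage protein and LHCB transcripts were abundant in both groups, as siliques with maturing seeds and green walls have them.

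AT3G01345, which encodes an uncharacterized protein, had the smallest p of all genes. It had 566, 235, 304 and 236 counts in Aza1 eM3 replicates 1 to 4 and 72, 56 and 68 counts in DMSO. No Aza1 eM3 library came down to the DMSO level. In CPM (counts per 1e6, scaled by TMM factors) the groups stood at 7.55 ± 3.28 (SD, n = 4) and 1.36 ± 0.0937 (SD, n = 3), a log2 difference of 2.47 (SE 0.32, edgeR adjusted p = 0.101). Against untreated jas-3 (80 and 60 counts) it was called, with a log2 difference of 2.45 (SE 0.37, edgeR adjusted p = 0.00292). DESeq2 gave an adjusted p of 1.36e-10 against DMSO, and edgeR with DMSO and jas-3 pooled as the control gave 0.00494. The eM2 libraries, at 5542, 3760 and 3038 counts, were all above the eM3 ones, and WT had 4 and 4 counts.

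AT5G03090, annotated as a Mto 1 responding down protein, had 231, 81, 1362 and 988 counts in Aza1 eM3 and 2, 8 and 13 in DMSO. Replicates 3 and 4 stood well above replicates 1 and 2, and all 4 were above every control. Its log2 difference was 6.48 (SE 1.33, edgeR adjusted p = 0.365). In eM2, 1 library of 3 reached that level, with 104, 1353 and 117 counts.

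AT5G01080, annotated as a beta-galactosidase related protein, showed the opposite order. It had 333, 190, 6 and 119 counts in Aza1 eM3, against 4, 4 and 1 in DMSO. Replicate 3 was near the controls, and without it the gene was called (edgeR adjusted p = 0.00225), while with all 4 libraries the log2 difference of 5.86 (SE 1.13) had an adjusted p of 0.331 by edgeR. Only 50.2% of its windows of 100 bases are unique in the genome, so part of its reads may belong to copies. The intergenic interval that adjoins it (chr5:29086-32832) followed the same order, at 1139, 635, 23 and 428 counts against 0, 1 and 11.

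AT5G45570, annotated as an Ulp1 protease family protein, split the siblings in pairs. It had 2382, 1211, 2 and 0 counts in Aza1 eM3 and 4, 0 and 6 in DMSO. Replicate 1 was at the level of the eM2 libraries (2441, 1790 and 2520 counts), and replicate 2 was below them. Replicates 3 and 4 were at the level of the controls. The neighbouring AT5G45573 had 340, 60, 0 and 0 counts, and 0 in every DMSO library. AT5G28235, a related Ulp1 gene, had 411, 207, 0 and 6 counts against 6, 0 and 0, but 986 of the 3175 windows of AT5G45570 occur in it as well, so their reads cannot be fully told apart.

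Another pair was on together in replicates 2 and 3. AT5G15360 had 0, 367, 369 and 2 counts in Aza1 eM3 and 0 in every DMSO and untreated jas-3 library. It was also read in WT (522 and 408 counts) and in 1 of 3 eM2 libraries (684, 0 and 0 counts). AT5G15420, also on chromosome 5, had 0, 42, 60 and 0 counts, with 0 in DMSO and in WT. The VANDAL20 element AT5TE25460 had 6, 447, 614 and 2 counts against 2, 0 and 0, and WT had 385 and 221. Thus the same siblings carried all 3 transcripts, and 2 of the 3 were read in WT as well.

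The starts of these genes are shown because 5-Azacytidine acts through cytosine methylation, mostly retained at CG sites. Each run covers 250 bases before and 50 bases from the annotated start on the strand of the gene (TAIR10.1, RefSeq annotation), with CG in capitals: chr3:128888-129187 on the plus strand, chr5:725031-725330 plus, chr5:29037-29336 minus, chr5:18471248-18471547 plus and chr5:4989133-4989432 minus.
AT3G01345: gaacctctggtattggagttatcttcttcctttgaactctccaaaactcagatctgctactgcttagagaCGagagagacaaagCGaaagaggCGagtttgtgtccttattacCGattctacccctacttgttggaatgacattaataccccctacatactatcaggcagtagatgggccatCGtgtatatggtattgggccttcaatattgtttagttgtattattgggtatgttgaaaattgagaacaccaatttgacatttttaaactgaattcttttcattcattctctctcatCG
AT5G03090: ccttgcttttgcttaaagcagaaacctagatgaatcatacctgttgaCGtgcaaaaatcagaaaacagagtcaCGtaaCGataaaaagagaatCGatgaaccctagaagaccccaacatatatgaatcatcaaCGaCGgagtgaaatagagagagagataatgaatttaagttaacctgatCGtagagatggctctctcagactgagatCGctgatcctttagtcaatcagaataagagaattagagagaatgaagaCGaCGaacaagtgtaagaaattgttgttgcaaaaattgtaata
AT5G01080: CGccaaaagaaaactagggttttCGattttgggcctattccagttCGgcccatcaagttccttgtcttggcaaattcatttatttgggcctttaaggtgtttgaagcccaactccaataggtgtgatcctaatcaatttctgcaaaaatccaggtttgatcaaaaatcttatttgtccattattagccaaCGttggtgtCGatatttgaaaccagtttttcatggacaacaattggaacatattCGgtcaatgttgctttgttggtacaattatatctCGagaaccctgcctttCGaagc
AT5G45570: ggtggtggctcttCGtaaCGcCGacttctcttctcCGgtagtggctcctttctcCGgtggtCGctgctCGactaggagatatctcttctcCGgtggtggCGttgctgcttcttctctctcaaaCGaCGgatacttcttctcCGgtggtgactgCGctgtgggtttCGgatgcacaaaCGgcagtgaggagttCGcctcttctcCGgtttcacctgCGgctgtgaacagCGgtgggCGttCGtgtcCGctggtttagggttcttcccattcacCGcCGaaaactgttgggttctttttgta
AT5G15360: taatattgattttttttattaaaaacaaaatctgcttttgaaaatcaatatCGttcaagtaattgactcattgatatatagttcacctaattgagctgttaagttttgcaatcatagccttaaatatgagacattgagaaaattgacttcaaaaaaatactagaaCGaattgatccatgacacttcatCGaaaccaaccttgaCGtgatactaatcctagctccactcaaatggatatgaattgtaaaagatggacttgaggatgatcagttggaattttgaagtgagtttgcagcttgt
The AT5G45570 start holds 24 CG, and 0.3% of the 37897 gene starts have at least as many. This RefSeq start lies outside the gene as counted (chr5:18472301-18475574), in the intergenic interval before it (chr5:18471148-18472301). The other starts hold 6 (AT3G01345, 56.7%), 10 (AT5G03090, 22.3%), 8 (AT5G01080, 36.4%) and 4 (AT5G15360, 78.0%), around the median of 6 over all gene starts. These counts describe the letters only, since methylation was not analysed here.

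**Figure D1:**
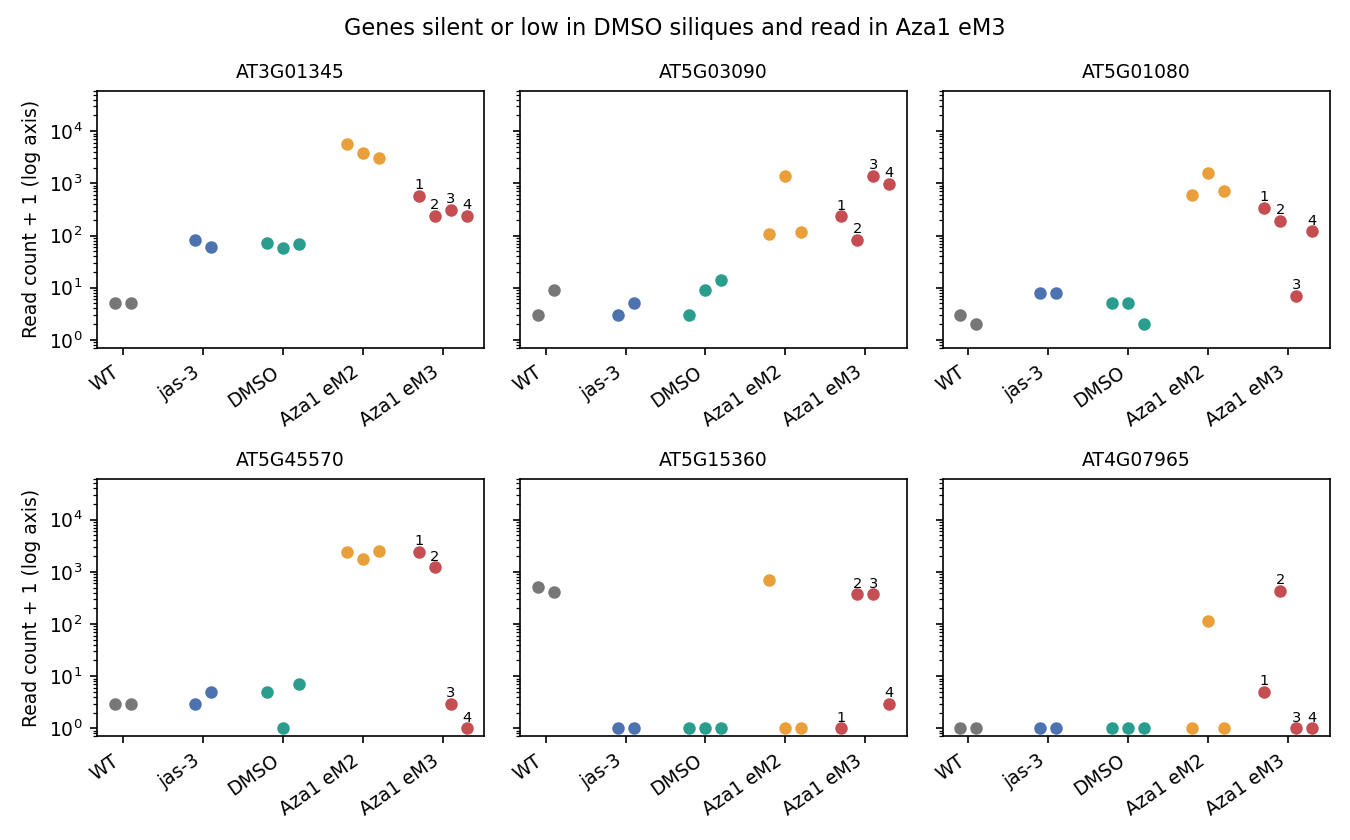
Read counts plus 1 on a log axis for 6 genes in each library of the 5 groups, 1 point a library, with Aza1 eM3 replicates numbered. AT3G01345 and AT5G03090 are above every DMSO library in all 4 Aza1 eM3 libraries, while AT5G45570 is high in replicates 1 and 2, AT5G15360 in replicates 2 and 3, and AT4G07965 in replicate 2.

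Genes that the study listed in differentially methylated regions (DMRs) of Aza1 eM2 with higher expression there were taken as a list. The study chose it on the eM2 and DMSO libraries, so its direction here is not independent of the DMSO values. Of its 22 tested members, 9 were higher in Aza1 eM3 and 1 lower at an unadjusted p under 0.05, where 4.29% and 2.98% of all genes were. The groups did not overlap for 5 members, all higher in Aza1 eM3, where 3.8% of all genes did so. The median log2 difference was 1.24, or 1.02 with the 5 members at 0 in a whole group set to their bound, against -0.00096 over all genes. Summed over the list, Aza1 eM3 libraries had 35.6 to 104 CPM and DMSO libraries 5.63 to 7.46 CPM. Single members held a large part of these sums in Aza1 eM3. AT5G45570 gave 52.49 and 30.08 CPM in replicates 1 and 2, and AT5G03090 gave 26.48 and 25.11 CPM in replicates 3 and 4.

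The members differed in how far they stood from DMSO. Every Aza1 eM3 library had at least 50 counts for 2 members, AT5G03090 and AT5G45095. AT5G45095, which encodes an uncharacterized protein, had 1513, 560, 170 and 136 counts in Aza1 eM3 and 188, 188 and 204 in DMSO, so that only replicates 1 and 2 were above the controls. At most 10 counts in every Aza1 eM3 library were found for 9 members, for example AT5G41660 (0, 0, 0 and 4 counts) and AT1G47660 (0, 0, 2 and 0 counts). AT4G03950, a nucleotide/sugar transporter family gene, kept 41, 12, 17 and 16 counts against 4, 1 and 4 in DMSO. AT3G27473, a Cysteine/Histidine-rich C1 domain gene, had 6, 21, 24 and 13 counts against 0, 0 and 2, or 24.4 times the DMSO total after scaling to gene counts (exact 95% counting interval 6.47 to 205). That interval takes each count as independent, while mates were largely counted separately, so it is too narrow.

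Outside that list, genes with higher counts in all 4 siblings included metabolic and regulatory genes at moderate level. ACHT5, an atypical thioredoxin of the chloroplast, had 311, 324, 418 and 440 counts in Aza1 eM3 and 179, 139 and 77 in DMSO (log2 difference 1.65, SE 0.33, edgeR adjusted p = 0.331). AT1G15330, a CBS domain protein gene, had 269, 414, 340 and 526 counts against 152, 143 and 102 (1.71, SE 0.34, edgeR adjusted p = 0.331). WRKY25, a transcription factor of heat and defence responses, had 204, 248, 230 and 188 counts against 74, 64 and 123 (1.45, SE 0.30, edgeR adjusted p = 0.365). These 3 genes were picked among those whose groups did not overlap, so the gap between the groups was set by that choice. None passed the adjusted test. MLS, the malate synthase of the glyoxylate cycle that turns stored lipid into sugar precursors, had 420, 816, 988 and 1972 counts against 215, 116 and 110. DESeq2 called MLS (adjusted p = 0.00797), and edgeR did not (adjusted p = 0.464). AT3G10890, a glycosyl hydrolase gene, had 108, 124, 167 and 81 counts against 10, 24 and 32, and AT5G05965, a cell wall RBR3-like gene, had 95, 165, 301 and 413 counts against 62, 20 and 24. DESeq2 called both as well, with adjusted p of 0.00178 and 0.00238.

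Among genes whose groups did not overlap, AT4G08190, AT3G30770 and AT5G05300 had the largest fitted folds on the higher side. AT4G08190 had 21, 27, 7 and 8 counts and AT5G05300 had 16, 19, 5 and 6 counts, and both had 0 in every DMSO library. Against a floor of 3 counts over the DMSO group they were at least 16-fold and at least 11.7-fold higher. Untreated jas-3 had 0 and 0 counts of AT4G08190 but 4 and 4 of AT5G05300, from which Aza1 eM3 differed by 1.71 on the log2 scale (SE 0.90). AT3G30770, an aspartyl protease family gene, had 54, 44, 277 and 160 counts against 4, 0 and 0.

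Among genes lower in Aza1 eM3, AT3G62550, an adenine nucleotide alpha hydrolase-like gene, had the smallest p. It had 1387, 1036, 1141 and 803 counts in Aza1 eM3 and 2433, 2444 and 2167 in DMSO, or 24.7 ± 4.48 CPM (SD, n = 4) against 49.1 ± 4.97 (SD, n = 3). The log2 difference was -0.99 (SE 0.15, edgeR adjusted p = 0.185). Untreated jas-3 had only 540 and 399 counts, so Aza1 eM3 lay between both controls (1.42 above jas-3 on the log2 scale, SE 0.18, edgeR adjusted p = 0.000825). AT2G15020 was likewise unlike in the controls, with 74, 42, 58 and 22 counts in Aza1 eM3, 160, 163 and 174 in DMSO, and 1742 and 1344 in jas-3. CCA1, a morning gene of the circadian clock, had 3757 and 3790 counts in jas-3, 570 to 776 in DMSO and 338 to 584 in Aza1 eM3. WT was nearer to jas-3 than to DMSO for AT3G62550 (200 and 220 counts), AT2G15020 (1231 and 1056) and CCA1 (3159 and 3361). Both controls thus differ from each other. In the contrast with jas-3, the solvent, the treatment and any other difference between these libraries cannot be told apart.

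AT3G62960, a thioredoxin superfamily gene, was lower against both controls. It had 42, 30, 46 and 28 counts in Aza1 eM3, 120, 144 and 251 in DMSO, and 194 and 120 in jas-3. The log2 difference from DMSO was -2.13 (SE 0.37, edgeR adjusted p = 0.282), and DESeq2 called it (adjusted p = 5.37e-05). ZFP8, a zinc finger factor of trichome development, had 305, 224, 354 and 233 counts against 525, 604 and 467 (log2 difference -0.83, SE 0.14). AT2G29670, a TPR-like gene, had 1706, 1206, 1933 and 1319 against 2826, 2502 and 2232, and AT5G66650, a calcium uniporter family gene, had 345, 351, 402 and 302 against 673, 726 and 570. Against untreated jas-3 the log2 differences were -0.79 (SE 0.15) for ZFP8, -0.02 (SE 0.12) for AT2G29670 and 0.03 (SE 0.16) for AT5G66650. AT2G29670 and AT5G66650 were thus lower against DMSO only. These genes were picked among those whose groups did not overlap, so the gap between the groups was set by that choice. The DMSO libraries spanned 1.19 log2 units for AT3G62960 and 0.25 to 0.45 for the others. Among genes whose groups did not overlap, those with the largest fold on the lower side had next to no reads in either group, for example AT5G23160 with 0 in every Aza1 eM3 library and 2, 4 and 2 counts in DMSO, at least 3.5-fold lower.

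The genes of the triploid block showed no difference between Aza1 eM3 and DMSO beyond the spread of the libraries. Of 10 tested PEGs tied to the block, 0 were past an unadjusted p of 0.05 in either direction (background 4.29% and 2.98%), 0 had groups without overlap, and their median log2 difference was -0.20. That median was 0.07 without DMSO replicate 1 and 0.08 when genes had to reach 10 counts in every library. PHE1 had 789, 163, 1065 and 279 counts in Aza1 eM3 and 1993, 571 and 525 in DMSO (log2 difference -0.75, SE 0.59, edgeR adjusted p = 0.778), and 0.04 without DMSO replicate 1. Replicates 1 and 3 lay within the DMSO range, and replicates 2 and 4 lay below it. In eM2, PHE1 had 22, 48 and 8 counts.

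Further block genes also overlapped with DMSO in CPM. ADMETOS (ADM), whose loss rescues triploid seeds, had 96, 81, 87 and 89 counts against 129, 99 and 125 (log2 difference -0.28, SE 0.22), and in CPM 1 of its 4 Aza1 eM3 libraries was inside the DMSO range. HDG3, a homeodomain factor expressed in endosperm, had 13975, 9567, 13151 and 8972 counts against 22850, 10704 and 10960. SUVH7, which encodes a histone methyltransferase of the SU(VAR)3-9 family, had 212, 98, 173 and 154 counts against 252, 142 and 184. NRPD1, the largest subunit of RNA polymerase IV, had 2207 to 2293 counts against 2003 to 2442, and YUC10, an auxin synthesis gene, had 504 to 822 against 565 to 720. PEG2 was the lowest of the set by fold (6, 4, 12 and 4 counts against 12, 14 and 19; log2 difference -1.11, SE 0.56, edgeR adjusted p = 0.681).

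Type I MADS-box genes carried the same order of siblings. Of 18 tested, 16 had lower fitted levels in Aza1 eM3, with a median log2 difference of -0.65, yet 0 were past an unadjusted p of 0.05 and 0 had groups without overlap. The median was 0.04 without DMSO replicate 1. Relative to the DMSO mean, the medians over the list were 0.05, -1.63, 0.35 and -1.28 log2 units in Aza1 eM3 replicates 1 to 4 and 0.95, -0.39 and -0.54 in DMSO. Replicates 1 and 3 were both above replicates 2 and 4 for 15 of the 18 genes, an order that 24.2% of all tested genes had. AGL40 showed it with 152, 12, 208 and 24 counts against 426, 60 and 184, and AGL35 with 147, 27, 280 and 32 against 416, 139 and 113. AGL92 had the same order of siblings but a higher fitted level than DMSO, with 975, 374, 930 and 648 counts against 871, 443 and 332, a log2 difference of 0.54 (SE 0.34). RR19, a response regulator on the list of genes lower in the DMR set of eM2, had 5128, 1738, 4895 and 1704 counts against 7548, 4680 and 3764.

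The wider lists gave small medians. Over 229 published PEGs the median log2 difference was -0.07, with 6 members higher and 9 lower at an unadjusted p under 0.05, a share near the background. PPI2, a proton pump interactor, was the member of smallest p, with 1096, 951, 1037 and 842 counts against 1668, 1358 and 1394 (log2 difference -0.46, SE 0.09, edgeR adjusted p = 0.331). Genes called higher in untreated jas-3 than in WT formed a list of 1582. That contrast uses neither group, but its filter, factors and estimated spread came from the fit of all 14 libraries. The list had a median of -0.15, with 24 higher and 49 lower at an unadjusted p under 0.05. Of all genes, 4.29% and 2.98% were, so that the lower count was near the background and the higher one below it. The median was 0.03 without DMSO replicate 1. DMR genes listed as lower in eM2 were also chosen by the study against these DMSO libraries, so lower values here are partly set by that choice. Their median was -0.57, and 19 of 20 had a lower fitted level, as 11220 of all 22359 genes did, 2 of them past an unadjusted p of 0.05. Among them, SULTR3;2, a sulfate transporter, had 82, 36, 92 and 38 counts against 146, 140 and 102 (log2 difference -0.98, SE 0.28, edgeR adjusted p = 0.608).

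**Figure D2:**
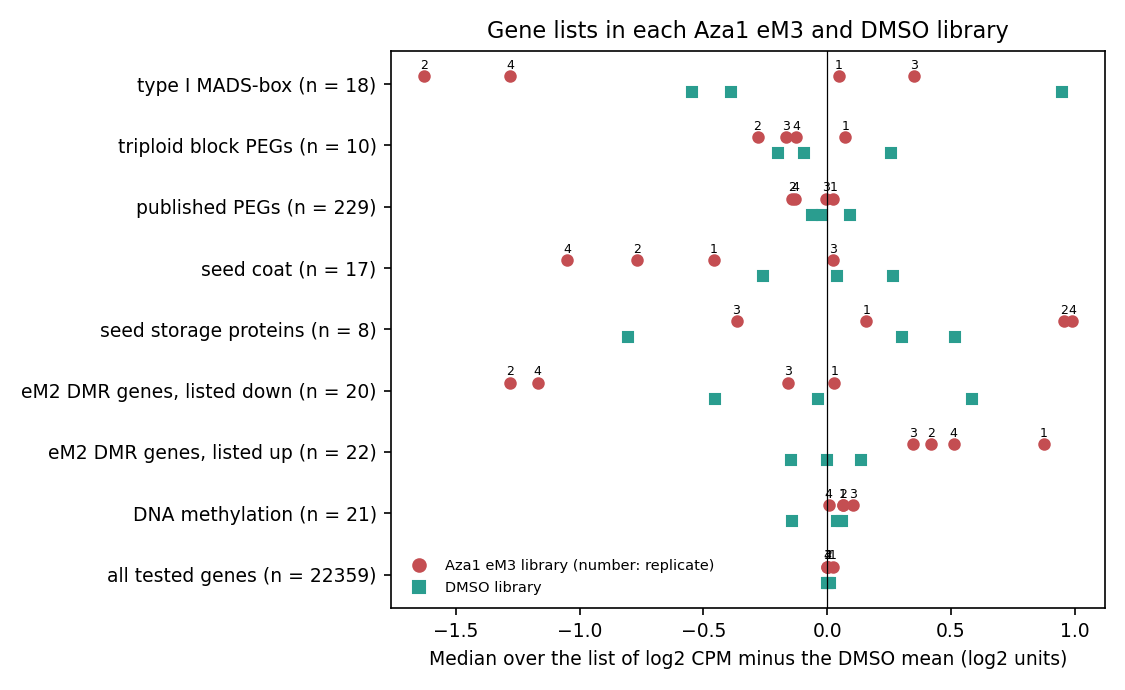
Median over each gene list of log2 CPM minus the mean of the DMSO libraries, in log2 units, for each Aza1 eM3 library (numbered circles) and DMSO library (squares). The type I MADS-box medians of replicates 2 and 4 are at -1.63 and -1.28, below every DMSO library, and those of replicates 1 and 3 lie within the DMSO range.

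The machinery of DNA methylation and of Polycomb repression gave medians near 0. Over 21 DNA methylation genes the median log2 difference was 0.03, and 1 was past an unadjusted p of 0.05. This was DRM2, the main de novo methyltransferase, with 1311, 1315, 1688 and 1336 counts against 1371, 1169 and 1374 (log2 difference 0.24, SE 0.09, edgeR adjusted p = 0.68). DRM1 had 16, 43, 16 and 16 counts against 20, 6 and 14, with replicate 2 apart from its siblings. Medians were 0.05 over 17 genes of RNA-directed DNA methylation and 0.05 over 8 Polycomb (PRC2) subunits. Among 10 DNA damage response genes, SMR7, an inhibitor of the cell cycle, had 46, 40, 54 and 37 counts against 27, 25 and 24 (log2 difference 0.91, SE 0.30, edgeR adjusted p = 0.654). Untreated jas-3 had 47 and 37 counts of SMR7, a log2 difference of 0.27 (SE 0.33).

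Markers of seed tissues varied widely within each group. The 8 seed storage protein genes took 19, 26.9, 14.9 and 27.6% of gene counts in Aza1 eM3 replicates 1 to 4 and 10.7, 19.5 and 22.6% in DMSO. The group means were 22.1 ± 6.18% (SD, n = 4) and 17.6 ± 6.17% (SD, n = 3), and the difference of 4.5 percentage points had p = 0.4 in an exact two-sided permutation test, which cannot go below 0.0571 in this design. In bulk siliques, fewer cells of a type and less RNA per cell cannot be told apart. Replicates 2 and 4, with the highest storage shares, were the ones with the lowest type I MADS-box levels, and DMSO replicate 1 had the lowest share and the highest MADS-box levels. The part of seed age in these differences was not tested.

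Seed coat genes had lower fitted levels in Aza1 eM3 for 16 of 17 members, with a median log2 difference of -0.60 that stayed between -0.82 and -0.30 under every alternative. Relative to the DMSO mean, the list medians were -0.46, -0.77, 0.03 and -1.05 log2 units in Aza1 eM3 replicates 1 to 4. They were 0.27, 0.04 and -0.26 in DMSO, so replicate 3 lay within the DMSO range and replicates 2 and 4 were lowest. The groups did not overlap for 5 of the 17 genes, all lower, where 3.86% of all genes did so, and 1 was past an unadjusted p of 0.05. That was TT2, a MYB factor of tannin synthesis, with 76, 54, 80 and 30 counts against 98, 148 and 94 (log2 difference -0.84, SE 0.34, edgeR adjusted p = 0.681). TT8, its bHLH partner, had 3168, 2207, 3256 and 1534 counts against 3887, 3285 and 3525, and TT4, the chalcone synthase, had 6139, 5653, 7576 and 3516 against 8299, 9441 and 9895. Summed CPM over the list was 1020 to 1290 in Aza1 eM3 and 1310 to 1510 in DMSO. In the endosperm growth list, IKU2, a receptor kinase of the HAIKU pathway, had 1336, 991, 1646 and 1123 counts against 1891, 1959 and 1825 (log2 difference -0.47, SE 0.15, edgeR adjusted p = 0.654). Untreated jas-3 had 1512 and 1495 counts of IKU2, a log2 difference of only -0.06 (SE 0.17). Silique wall genes had a median of -0.03 over 15 members, and LHCB1.4, a light-harvesting protein gene, stood above it, with 682, 666, 1701 and 467 counts against 475, 299 and 411. LHCB2.3, of the same family, had 708, 683, 1664 and 632 counts against 830, 430 and 320 (log2 difference 0.91, SE 0.44, edgeR adjusted p = 0.681), with replicate 3 highest for both genes.

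The spread among the 4 siblings was of the order of their distance from the controls. Euclidean distances on log2 CPM averaged 100.4 ± 17.4 within Aza1 eM3 (SD over 6 pairs), 89.45 ± 7.41 within DMSO (3 pairs) and 101.5 ± 21.2 between the groups (12 pairs). The closest pair of the 7 libraries crossed the groups, Aza1 eM3 replicate 3 with DMSO replicate 1 at 69.84, and the farthest was Aza1 eM3 replicate 2 with DMSO replicate 1 at 140.6. Among the siblings, replicates 2 and 4 were closest (78.29) and replicates 2 and 3 farthest apart (124.1). Principal component 1 held 48.1% of the variance and placed replicates 2 and 4 at -66.2 and -61.1, replicate 1 at -5.53, replicate 3 at 43.0 and the DMSO libraries between 10.8 and 66.9. This axis ran with the storage share, whose part was not tested. The median range per gene was 0.46 log2 units over the 4 siblings, 0.34 to 0.39 over any 3 of them, and 0.44 over the 3 DMSO libraries.

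**Figure D3:**
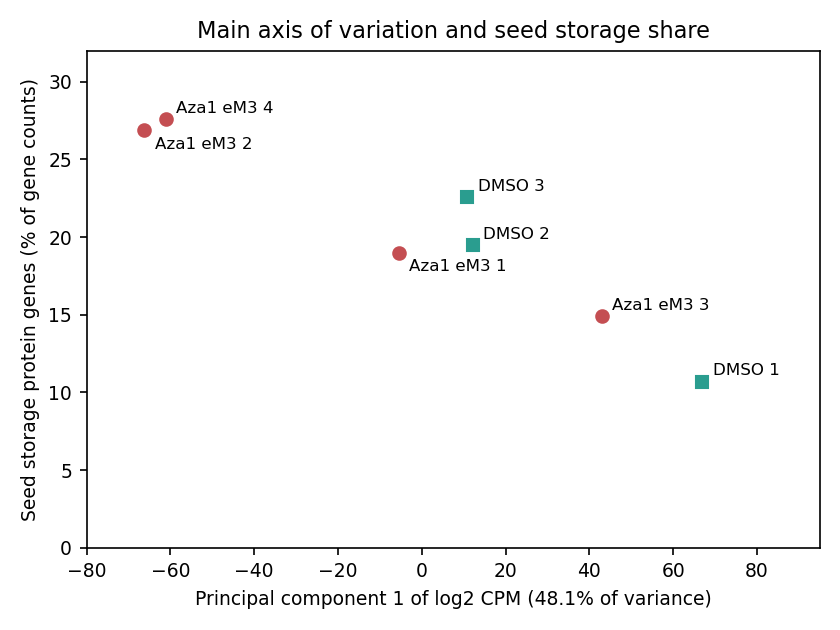
Percent of gene counts on 8 seed storage protein genes against principal component 1 of log2 CPM (48.1% of variance), for the 4 Aza1 eM3 libraries (circles) and 3 DMSO libraries (squares). Replicates 2 and 4 of Aza1 eM3 lie at one end with shares of 26.9 and 27.6%, and DMSO replicate 1 lies at the other with 10.7%.

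More genes were switched between the siblings than between the DMSO plants, except without replicate 3. With 3 counts or fewer in some library and at least 50 in another of the same group, 68 genes were on/off in Aza1 eM3, 20 in DMSO and 43 in eM2. Over any 3 siblings the number was 16 to 63, and it was 16 without replicate 3, so most of these genes turn on that library. They fell into unlike classes. Of the 68, 25 had at least 50 counts in some DMSO library, and 24 of those were highest in Aza1 eM3 replicate 3, for example EXPA25, an expansin, with 61, 10, 1089 and 0 counts against 961, 83 and 188, and AT3G02670, a glycine-rich protein gene, with 34, 2, 634 and 4 against 357, 22 and 123. Another 24 had at most 10 counts in every DMSO library, and 1 of those was highest in replicate 3.

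Defence genes were highest in replicate 2. PR2, a beta-1,3-glucanase induced by salicylic acid, had 358, 2588, 42 and 315 counts against 42, 138 and 32, and PR1 had 10, 38, 0 and 1 counts against 0, 2 and 0. KIN1, a cold-induced gene, was highest in replicate 4, with 1860, 8017, 43 and 8852 counts against 41, 588 and 463. The other cold-induced genes of the list had lower fitted levels, with log2 differences of -0.61 (SE 0.54) for RD29A and -0.91 (SE 0.51) for COR15A. Of the 6 genes of this list, 4 were higher and 0 lower at an unadjusted p under 0.05, where 4.29% and 2.98% of all genes were. None had groups without overlap, against 3.8% of all genes higher and 3.86% lower, and the median log2 difference fell from 2.82 to 0.65 without replicate 2. Replicate 3 lay within the DMSO range for PR2, PR1 and KIN1, and replicate 2 was above every DMSO library.

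A stricter count was taken after the values had been seen: features with at least 50 counts in some library of a group and at most 3 in every library of the other. This held for 10 genes of 27394 in favour of Aza1 eM3 and for 0 in favour of DMSO. It held for 20 of 19512 transposable elements (TEs) at least 500 bases from a gene and for 21 of 34414 intergenic intervals of at least 100 bases, again with 0 in the other direction. The groups hold 4 and 3 libraries, and with each sibling left out the numbers were 4 to 10, 11 to 20 and 9 to 20. The lowest of each came without replicate 2. Between untreated jas-3 and DMSO the corresponding numbers were 1 and 2 genes, 0 TEs and 0 intervals. Most of these features were on in a single sibling, 8 of the 10 genes, 15 of the 20 TEs and 17 of the 21 intervals, and replicate 2 was highest for 6, 9 and 12 of them. Some eM2 library also had at least 50 counts for 4 of the genes, 6 of the TEs and 5 of the intervals.

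Several features on in replicate 2 alone adjoin each other. AT4G07965 had 4, 423, 0 and 0 counts and the interval next to it (chr4:4809352-4809528) 2, 58, 0 and 0. In eM2 the gene had 0, 115 and 0 counts and the interval 0, 10 and 0. AT2G06845 had 0, 120, 0 and 0 counts and its neighbour (chr2:2753235-2754666) 2, 627, 0 and 0. AT1G35500 had 22, 228, 0 and 21 counts, with 0 in every eM2, DMSO, jas-3 and WT library, and the interval before it (chr1:13065601-13066087) had 2, 82, 0 and 3. Such neighbours can share reads, so they are not separate events. Replicate 2 also held the ATCOPIA89 element AT1TE44380 (0, 652, 0 and 2 counts), the ATENSPM6 element AT4TE20800 (2, 640, 0 and 0) and the ATGP3 element AT3TE16035 (2, 2316, 0 and 0). In eM2, AT4TE20800 had 0, 192 and 0 counts. Of the windows of AT3TE16035, only 14.7% are unique in the genome. Replicate 4 alone held the neighbouring VANDAL6 copies AT1TE69795, AT1TE69805 and AT1TE69815, at 52, 95 and 169 counts, all 3 of which were read in every eM2 library.

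**Figure D4:**
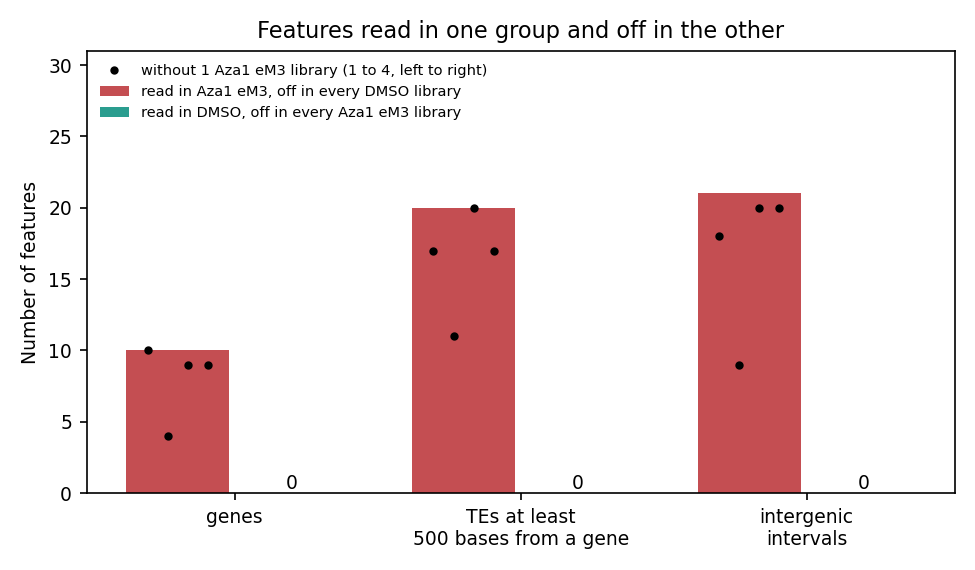
Number of genes, TEs and intergenic intervals with at least 50 counts in some library of a group and at most 3 in every library of the other. The bars for Aza1 eM3 stand at 10, 20 and 21 and those for DMSO at 0, and points show the Aza1 eM3 number without each sibling, lowest without replicate 2.

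Among the 874 TEs tested, 0 were called (0%), and the smallest adjusted p was 0.063. At an unadjusted p under 0.05, 42 (4.81%) were higher and 12 (1.37%) lower in Aza1 eM3, and the groups did not overlap for 34 (3.89%) higher and 25 (2.86%) lower. The En-Spm elements had a median log2 difference of 0.36 over 85 members and the Gypsy elements 0.17 over 163, where the same DMSO libraries gave 7.2 and 5.04 for eM2. The low-count filter kept 874 of 19512 TEs and passes elements that are read in a single group. Members may thus have entered through eM2, so the eM2 medians are partly set by the filter. These medians are of fitted folds, with no bound where DMSO had 0 counts. The element of smallest p was AT4TE12105, a VANDAL4 fragment, with 37, 13, 36 and 37 counts against 1, 2 and 0, or 31.2 times the DMSO total after scaling to gene counts (exact 95% counting interval 10.4 to 153). Here too the counts are not independent, so the interval is too narrow. The eM2 libraries had 39, 13 and 35 counts. AT2TE05665, an ATREP3 Helitron fragment, had 79, 74, 752 and 582 counts, and AT2TE05675, an ATLINE2 fragment nearby, had 20, 20, 151 and 110. Both had 0 in every DMSO library, and they were at least 377-fold and at least 76.4-fold higher against a floor of 3 counts over the group.

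The sequences of AT2TE05665 (chr2:1252886-1253040) and AT4TE12105 (chr4:2584752-2584900), on the plus strand of TAIR10.1, are shown because they were above the controls in every sibling, with CG in capitals.
AT2TE05665: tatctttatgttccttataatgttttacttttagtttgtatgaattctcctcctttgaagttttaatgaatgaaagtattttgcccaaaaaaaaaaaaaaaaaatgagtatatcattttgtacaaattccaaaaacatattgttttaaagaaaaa
AT4TE12105: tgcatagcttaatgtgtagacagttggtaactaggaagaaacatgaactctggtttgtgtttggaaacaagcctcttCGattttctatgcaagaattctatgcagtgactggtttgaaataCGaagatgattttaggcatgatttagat
The first holds 0 CG and the second 2, and each adjoins an intergenic interval described next.

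Intergenic intervals, tested after the values had been seen, gave the calls that genes and TEs did not. Of 8844 tested, 4 were called higher in Aza1 eM3 (0.0452%) and 0 lower. With a DMSO library left out, 0 were called, whichever library it was, and 4 or 5 were called without any 1 sibling. At an unadjusted p under 0.05, 361 intervals (4.08%) were higher and 300 (3.39%) lower. The interval beside AT4TE12105 (chr4:2582594-2584752) had 221, 100, 242 and 290 counts against 17, 6 and 16, a log2 difference of 4.16 (SE 0.48, edgeR adjusted p = 0.0013). In eM2 it had 241, 142 and 246 counts, so all 7 Aza1 libraries were at a like level there.

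Of the 3 other called intervals, 2 had few or no reads in eM2. The interval beside AT2TE05665 (chr2:1251391-1252886) had 1423, 937, 15195 and 10281 counts against 6, 8 and 4, a log2 difference of 10.21 (SE 1.42, edgeR adjusted p = 0.00644). The eM2 libraries had 0, 24 and 2 counts. An interval that ends at an ATLINE1_4 fragment (chr2:1419517-1422029) had 156, 66, 309 and 128 counts against 0, 2 and 0 (log2 difference 7.73, SE 0.80, edgeR adjusted p = 0.0013), and 0 in all 3 eM2 libraries. Both intervals were thus read in every eM3 sibling and hardly in the preceding generation. Farther along chromosome 2, chr2:6785573-6786931 had 4, 44, 5045 and 4117 counts with 0 in every DMSO and eM2 library, high in the same replicates 3 and 4 as AT5G03090 and AT2TE05665.

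The last called interval (chr3:524631-525370) adjoins AT3TE02240, a SADHU element, a family of retroposons known for natural epigenetic variants in Arabidopsis. The interval had 81, 50, 86 and 28 counts against 0, 4 and 2 (log2 difference 4.91, SE 0.70, edgeR adjusted p = 0.00644). The element itself, too near a gene for the TE test, had 1073, 574, 849 and 249 counts in Aza1 eM3, 67, 85 and 44 in DMSO, and 50 and 49 in untreated jas-3. It was read in eM2 (477, 320 and 201 counts) and also in WT (1039 and 666 counts), so the low libraries were those of the jas-3 controls. Whether strand was used in counting is not given in the sources used here, and the neighbouring gene AT3G02510 had 164 to 228 counts against 209 to 261.

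**Figure D5:**
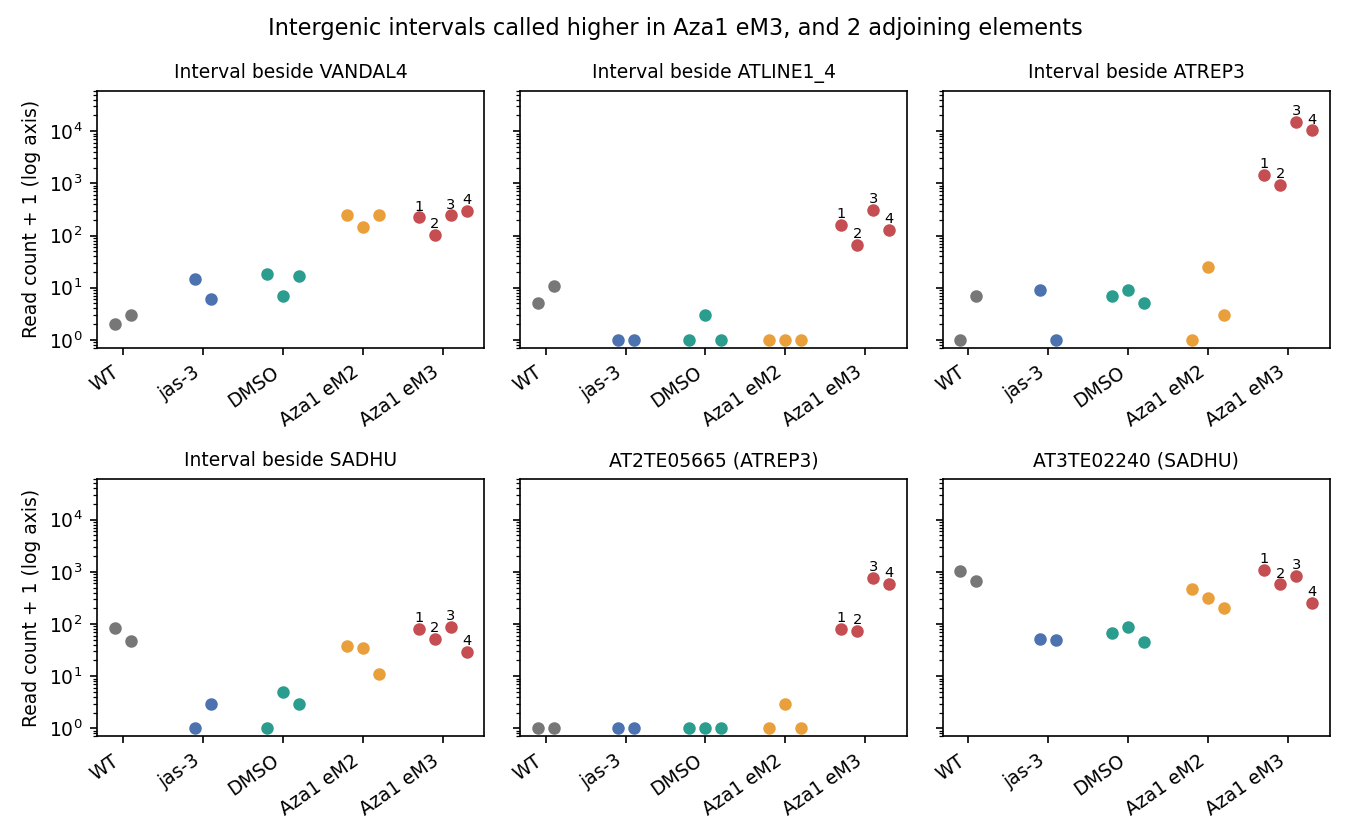
Read counts plus 1 on a log axis in every library for the 4 intergenic intervals called higher in Aza1 eM3 and for 2 adjoining elements, 1 point a library, with Aza1 eM3 replicates numbered. The intervals beside ATREP3 and ATLINE1_4 are high in Aza1 eM3 alone, that beside VANDAL4 in both Aza1 generations, and SADHU in WT and both Aza1 generations.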

How the data were processed

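The authors aligned reads to the TAIR10 genome with STAR and deposited, for each library, counts of reads for every annotated gene, TE and interval between them, as whole numbers not normalized; versions are not given in the sources used here. Between 73.7 and 79.0% of the small counts in the 7 libraries were even, so mates were largely counted separately, and counts divided by 2 were tried. Neighbouring features share an end base and can share reads.

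Gene counts of all 14 libraries were fitted by group in edgeR 4.0.16 (R 4.3.3) with filterByExpr, TMM factors and the quasi-likelihood test, with Benjamini-Hochberg adjustment over all genes tested. CPM and log2 CPM (prior count 2) use the TMM factors. TEs at least 500 bases from a gene and intergenic intervals of at least 100 bases took the library sizes and factors of the genes. DESeq2 1.42.0, other filters, controls, covariates and left-out libraries were alternatives. Scripts were tested on simulated data. The self-test gives no value here.

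Depth was 40784273 to 43974069 gene counts in the 7 libraries, and intervals and floors cover counting error only. Both take each count as independent, while mates were largely counted separately and libraries were summed, so the intervals are too narrow. P-values measure the spread between these libraries, since siblings of 1 line stand for the treatment. Genes named were JASON, the triploid block PEGs, those called by any alternative, those of smallest p or largest fold without overlap of the groups, those of widest range in Aza1 eM3, and the members of smallest p in each list. Others, and all intergenic intervals, were chosen after their values were seen. Members and lists were chosen with earlier results of these data known. Gene names and sequences came from RefSeq (TAIR10.1), whose chromosome lengths differ by 0 from the deposited intervals. Of 27394 genes, 26907 matched by identifier, 5209 of them with the same start and end.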

Additional observations from a re-analysis of the deposited data

Results flagged for a closer look

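Of 112 sets of 4 values in Aza1 eM3 that were checked, 13 had a library apart from its siblings, judged by the gap to the nearest value over the whole range (Dixon's critical value for 4 values). Chance flags about 5% of sets that were not chosen by their values. Part of these sets belong to genes named for a wide range within Aza1 eM3 or by other measured values, so the 13 cannot be read against that share. Replicate 2 was the high one for AT4G07965 (0.992), AT1G35500 (0.906), PR2 (0.887), DRM1 (0.874) and AGO6 (0.892). Replicate 3 was the high one for LHCB2.3 (0.919) and AT5G07850 (0.862), and, at fewer than 10 counts, for AGL90 (1) and AT5G43240 (1). Replicate 1 was the high one for AT3G01345 (0.976), and, at fewer than 10 counts, for AT3G46880 (0.853) and the TE AT1TE41820 (1). Replicate 2 was the low one for the TE AT4TE12105 (0.851).

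Intergenic intervals were outside the planned comparison and held signal above the DMSO libraries. The adjusted p by edgeR was 0.0013 for chr4:2582594-2584752, 0.0013 for chr2:1419517-1422029, 0.00644 for chr2:1251391-1252886 and 0.00644 for chr3:524631-525370.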

How the results depend on the processing

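In the contrast with DMSO, the counts of genes called were 0 higher and 0 lower under every alternative except DESeq2 (8 higher, 1 lower), DMSO pooled with jas-3 (1 higher) and the fit without Aza1 eM3 replicate 3 (1 higher), so that leaving out 1 library gave 0 to 1 higher and 0 lower. Against jas-3, 31 higher and 46 lower became 79 and 146 with the fold threshold lowered to 1 on the log2 scale, 75 and 77 with DESeq2, 19 higher with the storage share as a covariate, and 27 lower with only the groups compared in the fit. Leaving out 1 library gave 12 to 29 higher and 23 to 43 lower, the lowest without jas-3 replicate 1. TEs gave 24 higher and 1 lower without a filter on low counts and 0 with any library left out, and intergenic intervals gave 93 higher and 2 lower without a filter, and 0 to 5 higher with 1 library left out. The mean distance within Aza1 eM3 was 1.122 times that within DMSO, 1.463 times over the 500 most variable genes, and 1.004 to 1.193 times with 1 sibling left out. On/off genes numbered 68, 32 at 100 counts in the higher library, and 16 to 63 with 1 sibling left out. The storage share difference of 4.5 percentage points stayed between 1.05 and 7 with 1 library left out.

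Some log2 differences changed sign, among them several that were not near 0 (LHCB2.3 at 0.91, PHE1 at -0.75, SMR5 at 0.69 and AGL62 at -0.59 with all libraries). JASON was at -0.00714 with the share as a covariate, -0.0662 with pooled controls and -0.12 to 0.31 with 1 library left out. NRPD1 was at -0.00338 and SMR5 at -0.18 with the covariate, and TAR1 at 0.30 with it and 0.14 with the replicate block. AGO9 was at -0.0192 and LHCB2.3 at -0.0809 with pooled controls. With 1 library left out, PHE1 ranged from -1.12 to 0.0427, SUVH7 from -0.30 to 0.0208, TAR1 from -0.56 to 0.81, HDG3 from -0.40 to 0.12 and AGL62 from -1.01 to 0.0363, each highest without DMSO replicate 1, and VIM5 from -0.0208 to 0.29. The cause was not tested.

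Replicate numbers did not pair the samples: same-numbered Aza1 eM3 and DMSO libraries correlated at 0.118, 0.294 and -0.26 in their deviations. With the replicate block, 0 genes were called in either direction against DMSO, with 519 higher and 370 lower at an unadjusted p under 0.05, and 22 higher and 32 lower against jas-3, and 6 intergenic intervals were called higher. Features with 3 counts or fewer in both groups give no fold at this depth.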
